A study of Mus musculus with 24 samples.

Results

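The clustered protocadherin genes were taken as every gene whose symbol began with Pcdha, Pcdhb or Pcdhg followed by letters or digits, and 53 such genes were listed in at least 1 of 2 expression tables that together hold 17953 genes. The mouse embryonic stem cell (mESC) table listed 44 of them among 17501 genes, the neural progenitor cell (NPC) table listed 37 among 16024, and 28 were in both. The tables come from RNA sequencing of 24 libraries, 12 per cell type, in 6 genotypes of the huntingtin gene Htt with 2 libraries each: wild type (WT), knockout (KO), and heterozygous knock-in lines with 20, 50, 92 or 111 CAG repeats, named Q20, Q50, Q92 and Q111. The titles give 92 repeats for the Q92 line and the growth protocol gives 89. Per the labels, mESC grew with leukaemia inhibitory factor on a feeder layer of mouse embryonic fibroblasts, and NPC were differentiated from mESC and kept on laminin in medium with FGF and EGF. Each genotype was a cell line of its own, so line and genotype cannot be told apart. The labels do not state whether the 2 libraries of a group came from separate cultures or derivations, and p-values measure the spread between these libraries, which may be technical.

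Clustered protocadherins are cell surface proteins of the cadherin superfamily that neurons display in different combinations, and matching combinations let neurites of the same neuron recognise and avoid each other. Each alpha and gamma gene has its own promoter and a large first exon for the extracellular, transmembrane and proximal cytoplasmic parts, spliced to constant exons that all genes of the cluster share, while each beta gene is a single exon with no constant part. Promoter choice among the alternate genes is stochastic in many neurons and depends on CTCF, cohesin, distal enhancers and DNA methylation, whereas the C-type genes at the end of the alpha and gamma clusters are expressed more broadly.

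In the GENCODE M21 annotation of GRCm38 the clusters lie in a row on the plus strand of chromosome 18, with 14 alpha genes (start 36930184, end 37187661), 22 beta genes (37264938 to 37524479) and 22 gamma genes (37661793 to 37841873). In mESC 10 alpha, 18 beta and 16 gamma genes were listed, and in NPC 14, 3 and 20. Alpha genes shared about 2860 exonic bases and had a median of 2494 of their own, gamma genes typically shared 2119 and had 1570 to 5508 of their own, and all 22 beta genes had a single exon. How the authors assigned reads from the shared exons is not given in the sources used here, so the division of reads between members of a cluster is uncertain. Pcdhga10, Pcdhgb7, Pcdhga11 and Pcdhga12 overlap Gm26672 on the opposite strand. Pcdhga7 and Pcdhga8 overlap Gm37165, Pcdhga1 overlaps Gm37118 and Pcdhgc3 overlaps BC037039, also on the opposite strand. On the same strand, Pcdha4 overlaps Gm42416, Pcdha6 Gm37013, Pcdha7 Gm37388, an entry of Pcdha11 Gm18150 and Pcdhgc5 Gm38182. Some alpha genes, Pcdha12 among them, also have overlaps on the opposite strand. Strand use in counting is likewise not given, and reads of such pairs cannot be told apart. The symbol Pcdha11 stands for 2 entries, ENSMUSG00000007440 and ENSMUSG00000102206, given separately here.

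Values are normalised read counts (CPM, scaled to library size). Libraries held 58546211 to 81502284 counted reads for mESC and 48525333 to 118038952 for NPC. Htt itself stood at 100.1 and 94.9 CPM in the NPC libraries labelled KO against 137 and 177 in WT, but in mESC at 139 and 68.5 in KO against 124 and 113 in WT, so replicate 1 labelled KO was not below WT there. Pluripotency markers (6 genes) summed to 1973 to 3756 CPM in mESC; in NPC, where 4 were listed, they summed to 1.38 to 8.05 except in Q20, at 104.5 and 102; the lowest value of Pou5f1 was 0 and its highest, in Q20, 90.05. Of 7 fibroblast markers, all listed in NPC, the sum was 876 and 899 CPM in Q50, 299 and 241 in Q20, 22.3 to 36.9 in WT and KO, and 2.54 to 7.65 in Q92 and Q111. Of 6 astrocyte markers, all listed, the NPC sum was 1111 to 1223 CPM in Q92 and Q111 and 1916 to 4183 in the other 4 genotypes; of 7 neural progenitor markers 6 were listed (Sox2 was not), each above 0 in every NPC library, with sums of 2564 and 2673 in Q20 and 4246 to 7035 elsewhere. The part of these differences in the results below was not tested. Fibroblast marker sums in mESC are not given, and the part of feeder cell RNA in the mESC levels was not tested.

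The gamma cluster had the highest summed level in both cell types, and the ranges of the alpha and beta sums overlapped. The sums cover different numbers of listed genes, and the beta sums include exact zeros. In NPC the summed level of the alpha genes was 15.0 to 84.2 CPM (median 38.1 over 12 libraries), that of the 3 beta genes 2.68 to 66.1 (median 39.1) and that of the gamma genes 84.5 to 636 (median 127). In mESC the sums were 0.460 to 3.07 for alpha, 0.758 to 5.66 for beta and 27.4 to 71.5 for gamma, so that only the gamma cluster held genes well above 1 CPM. The tables were scaled separately, so these levels are set side by side and were not tested; in bulk RNA, fewer cells of a type and less RNA per cell cannot be told apart. Between 5 and 14 alpha genes and between 12 and 19 gamma genes reached 1 CPM in an NPC library, against 0 or 1 alpha gene and 7 to 15 gamma genes in an mESC library. In NPC all 37 members passed the filter of 1 CPM in 2 libraries and were tested; in mESC 16 of 44 did, which were Pcdhac2 and 15 gamma genes.

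**Figure D1:**
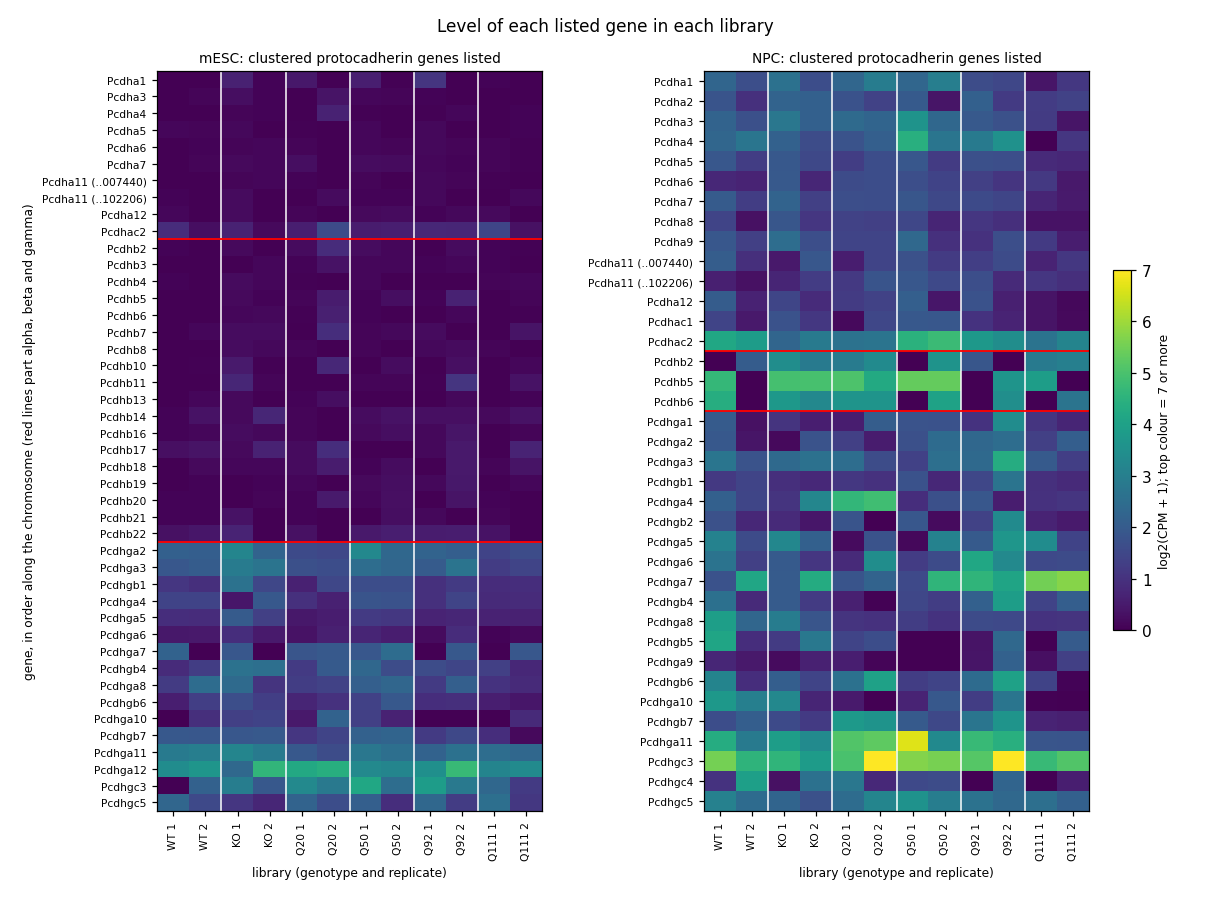
Level of every listed clustered protocadherin gene (rows, in order along the chromosome, red lines between alpha, beta and gamma) in every library (columns, 2 per genotype) as log2(CPM + 1), for mESC on the left and NPC on the right. Alpha and beta rows are dark throughout mESC, where the gamma sum was 27.4 to 71.5 CPM, and neighbouring columns of the same NPC genotype differ in many gamma rows.

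The alpha genes were expressed broadly in NPC, with means of 1.15 to 5.44 CPM for all but Pcdhac2, which averaged 11.2. Pcdhac2, the C-type gene known for the spacing of serotonergic axons, had 17.1 and 13.6 CPM in WT, 3.82 and 6.41 in KO, 5.17 and 5.44 in Q20, 21 and 26.6 in Q50, 12.3 and 9.87 in Q92 and 5.39 and 7.97 in Q111. Both Q50 libraries were the highest, WT came next, and the KO, Q20 and Q111 libraries were low and overlapped each other. Per kilobase of its own exons Pcdhac2 was the leading alpha gene in 7 of 12 NPC libraries, and the leading gene held 13.8% to 44.0% of the cluster's summed CPM per kilobase. The other C-type gene, Pcdhac1, was low, at 1.68 and 0.393 CPM in WT, 2.41 and 1.19 in KO, 0.124 and 1.83 in Q20, 2.79 and 2.75 in Q50, 1.02 and 0.625 in Q92 and 0.284 and 0.128 in Q111, with both Q111 libraries below both KO and both Q50 libraries.

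Among the alternate alpha genes, which carry the variable part of neuronal identity, Pcdha4 reached the highest level. Its values were 3.99 and 5.63 CPM in WT, 3.54 and 2.12 in KO, 2.46 and 3.32 in Q20, 20.4 and 5.61 in Q50, 6.42 and 10.7 in Q92 and 0 and 1.15 in Q111. A single Q50 library stood far above all others, and Pcdha4 was listed at 0 in Q111 replicate 1. Pcdha3 had 3.70 and 2.26 CPM in WT, 5.86 and 3.39 in KO, 4.31 and 3.76 in Q20, 11.1 and 4.01 in Q50, 2.91 and 2.35 in Q92 and 1.34 and 0.326 in Q111. The Q111 libraries were the lowest of the 12 and Q50 replicate 1 again the highest. Q111 had the lowest genotype mean for 11 of 14 alpha genes, while Q50 had the highest for 7 and KO for 5. The alpha genes share their constant exons, so these counts are not of separate observations. How often these genotypes were lowest or highest over all tested genes was not counted. The 12 alternate alpha genes summed to 9.34 and 8.76 CPM in Q111 and to 18.0 to 60.4 CPM in the other 10 libraries, so the Q111 range lay below all of them. Neuron markers (7 genes, all listed) summed to 769 and 747 CPM in Q111 and to 785 to 1628 in the other libraries, but Map2 alone made up 732 and 714 CPM of the Q111 sums and was lower in Q20, at 599 and 646. Of the other markers, Syt1 was highest in Q111 (17.7 and 16.2 CPM). Stmn2 was 5.51 and 5.25 CPM there, above every library but those of Q20. Tubb3, Dcx, Rbfox3 and Snap25 are not given singly, so Syt1 and Stmn2 do not stand for the neuron markers as a set. The part of the neuron markers in the alpha levels was not tested.

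The 3 beta genes of the NPC table switched between a sizeable level and an exact 0 within genotypes. Pcdhb5 was listed at 24.2 and 0 CPM in WT, 29.6 and 30.1 in KO, 31.9 and 17.9 in Q20, 39.7 and 39.8 in Q50, 0 and 11.2 in Q92 and 13.8 and 0 in Q111. Pcdhb6 was listed at 19.4 and 0 CPM in WT, 12.3 and 8.65 in KO, 11.4 and 11.3 in Q20, 0 and 15.3 in Q50, 0 and 10.01 in Q92 and 0 and 5.47 in Q111. Pcdhb2 was listed at 0 and 3.12 CPM in WT, 9.82 and 6.26 in KO, 6.49 and 9.29 in Q20, 0 and 11.01 in Q50, 2.67 and 0 in Q92 and 6.38 and 7.17 in Q111. In WT, Q50, Q92 and Q111 at least 1 of the 3 genes stood at 0 in 1 library and at 5 CPM or more in its replicate, whereas KO and Q20 had no such value. An exact 0 beside 5 CPM or more in the replicate was seen in 69 of 590 single-exon genes tested in NPC (11.7%) and in 7 of 12611 genes of 2 or more exons (0.0555%). In mESC it was seen in 68 of 600 single-exon genes (11.3%) and 15 of 13313 others (0.113%). The zeros of the beta genes are therefore listed as deposited, and no fold between genotypes is given for a beta gene. The replicate differences and limma fits below still include these zeros, on the log2(CPM + 1) scale.

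In mESC all 18 listed beta genes were scarce, with highest library values of 0.151 to 1.12 CPM and 42 to 243 reads each over the 12 libraries. Those with the highest means were Pcdhb22, Pcdhb17 and Pcdhb14, at 0.293, 0.285 and 0.208 CPM. Pcdhb22 had 0.247 and 0.336 CPM in WT, 0.618 and 0 in KO, 0.252 and 0 in Q20, 0.387 and 0.490 in Q50, 0.439 and 0.488 in Q92 and 0.259 and 0 in Q111, with no genotype apart from the others. Pcdhb17 had 0.214 and 0.301 CPM in WT, 0.124 and 0.597 in KO, 0.163 and 0.888 in Q20, 0 and 0 in Q50, 0.118 and 0.391 in Q92 and 0 and 0.628 in Q111. Pcdhb14 had 0.0494 and 0.266 CPM in WT, 0.137 and 0.676 in KO, 0.0741 and 0 in Q20, 0.180 and 0.271 in Q50, 0.219 and 0.211 in Q92 and 0.137 and 0.269 in Q111. Zeros in these genes were scattered over genotypes. The alpha genes had 33 to 592 reads each in mESC, and after Pcdhac2 the highest means were 0.223 CPM for Pcdha1 and 0.0885 for Pcdha7. Pcdha1 had 0.0165 and 0 CPM in WT, 0.549 and 0.0398 in KO, 0.356 and 0.0261 in Q20, 0.498 and 0.0258 in Q50, 1.11 and 0 in Q92 and 0.0457 and 0 in Q111. Pcdha7 had 0 and 0.0708 CPM in WT, 0.137 and 0.0928 in KO, 0.193 and 0 in Q20, 0.166 and 0.155 in Q50, 0.0844 and 0.0488 in Q92 and 0.0762 and 0.0384 in Q111. No library passed 1.11 CPM in either gene. At this depth, where 1 read was worth 0.0128 to 0.0177 CPM, differences between genotypes in these genes were not tested.

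Gamma genes summed to more than the alpha and beta genes together in all 12 mESC libraries and in 10 of 12 NPC libraries, all but KO replicate 1 (88.5 against 44.0 and 51.7 CPM) and Q50 replicate 2 (120.4 against 56.3 and 66.1). The NPC beta sums hold only the 3 listed genes with the exact zeros described above, so the NPC count may depend on them. In NPC the C-type gene Pcdhgc3, whose protein promotes dendrite arborisation in cortical neurons, was the most abundant of all. It had 45.3 and 22.5 CPM in WT, 22.8 and 13.2 in KO, 30.96 and 205 in Q20, 51.1 and 46.5 in Q50, 34.7 and 468 in Q92 and 25.2 and 33.5 in Q111. Q20 replicate 2 and Q92 replicate 2 stood far above the other 10 libraries, which lay between 13.2 and 51.2 CPM, and the other library of each of those genotypes was within that range. Without Pcdhgc3 the gamma sum ran from 65.7 to 169 CPM, and Q92 replicate 2 was still the highest. Q92 replicate 2 was the highest library for 10 of 20 gamma genes, and how often it was highest over all tested genes was not counted.

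Pcdhga11 was the next most abundant gamma gene, with 19.2 and 6.21 CPM in WT, 13.9 and 9.11 in KO, 32.97 and 37.3 in Q20, 99.3 and 9.04 in Q50, 25.2 and 20.3 in Q92 and 2.60 and 2.52 in Q111. The Q50 libraries were far apart, with the highest value of the 12 in replicate 1, and both Q111 libraries were below all others. Pcdhga7 followed, with 2.40 and 16.8 CPM in WT, 3.04 and 18.7 in KO, 2.55 and 3.68 in Q20, 1.90 and 22.8 in Q50, 23 and 15.99 in Q92 and 44.5 and 52.2 in Q111. Both Q111 libraries were the highest, and WT, KO and Q50 each had a low and a high library. Of the other C-type genes, Pcdhgc4, which is required for the survival of cortical interneurons, had 1.03 and 14.4 CPM in WT, 0.236 and 5.10 in KO, 5.84 and 0.740 in Q20, 1.93 and 2.07 in Q50, 0 and 3.80 in Q92 and 0 and 0.510 in Q111. It was highest in WT replicate 2 and listed at 0 in the first replicates of Q92 and Q111. Pcdhgc5 had 7.41 and 4.44 CPM in WT, 3.79 and 2.34 in KO, 4.56 and 8.06 in Q20, 10.8 and 6.77 in Q50, 5.27 and 4.14 in Q92 and 4.93 and 3.42 in Q111, with the highest value in Q50 and the lowest in KO.

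The gamma gene in the lead changed between libraries of the same line. Per kilobase of own exons, Pcdhgc3 led in 7 NPC libraries, Pcdhga7 in KO replicate 2 (20.1% of the cluster's summed CPM per kilobase) and in both Q111 libraries (43.2% and 47.2%), Pcdhga4 in Q20 replicate 1 (29.1%) and Pcdhga11 in Q50 replicate 1 (58.7%). Pcdhga4 has the fewest own bases of the gamma genes (1570). In CPM it was below Pcdhga11 and Pcdhgc3 in Q20 replicate 1 (24.02 against 32.97 and 30.96), so its lead there depends on this scaling. Whether reads of shared exons were counted is not known. The share of Pcdhgc3 was 53.5% in Q20 replicate 2 and 70.0% in Q92 replicate 2, against 17.4% and 21.1% in the first replicates of those lines. In mESC the lead was smaller, 10.4% to 29.5%, and fell to Pcdhga12 in 5 libraries, Pcdhga11 in 4, Pcdhgc3 in 2 and Pcdhga2 in 1.

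**Figure D2:**
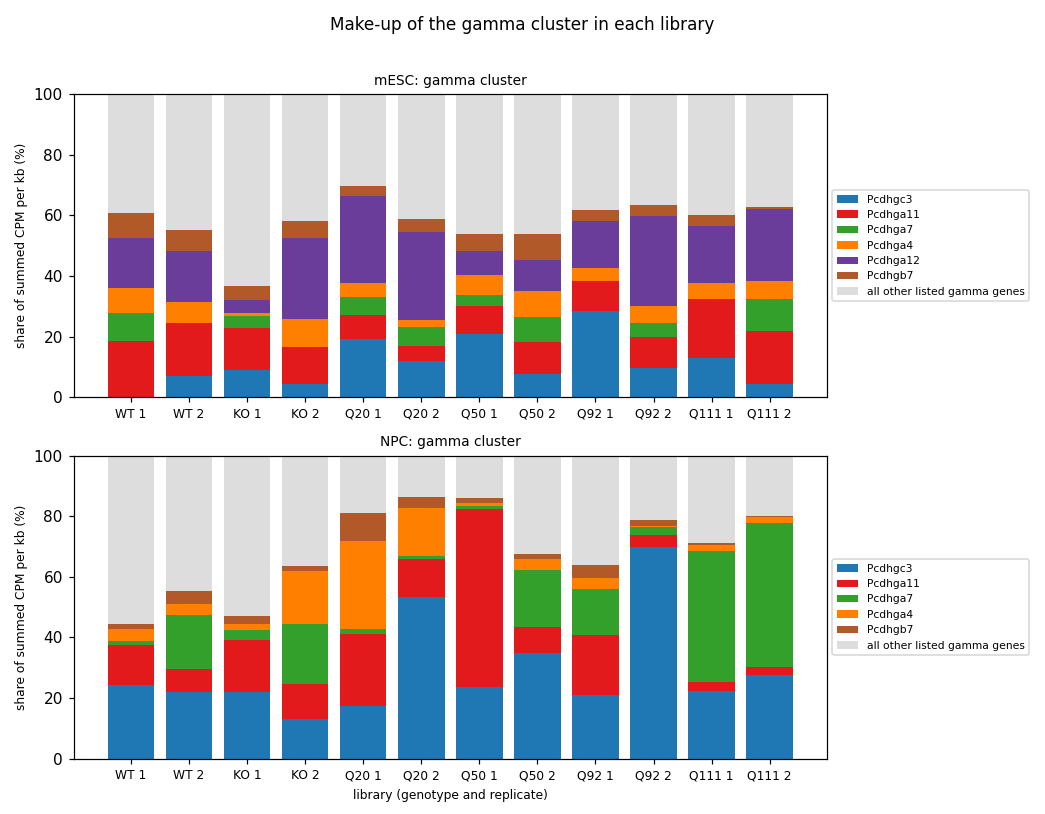
Share of each of 6 gamma genes, and of all other listed gamma genes together, in the cluster's summed CPM per kilobase of own exons (y axis, percent) for each library (x axis), mESC above and NPC below; Pcdhga12 was not listed in NPC. In NPC the Pcdhga7 share is 43.2% and 47.2% in the Q111 libraries and the Pcdhgc3 share 70.0% in Q92 replicate 2, while in mESC no gene exceeds 29.5%.

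In mESC, Pcdhga12 had the highest gamma level, with 9.61 and 11.4 CPM in WT, 4.17 and 23.5 in KO, 17.8 and 20.1 in Q20, 8.74 and 8.18 in Q50, 10.1 and 25.4 in Q92 and 7.85 and 9.26 in Q111. The 2 KO libraries spanned most of the range, and no genotype stood apart. Pcdhgc3 had 0 and 3.52 CPM in WT, 6.75 and 2.84 in KO, 8.81 and 6.05 in Q20, 16.9 and 4.70 in Q50, 13.6 and 6.05 in Q92 and 4.07 and 1.28 in Q111, with the first replicate above the second in all 4 knock-in lines. Pcdhga11 had 6.33 and 7.01 CPM in WT, 8.09 and 6.25 in KO, 2.83 and 2.09 in Q20, 5.81 and 4.85 in Q50, 3.61 and 5.11 in Q92 and 4.65 and 4.01 in Q111, and both Q20 libraries were the lowest. Pcdhgc5, a C-type gene known from the postnatal brain, had 4.00 and 1.93 CPM in WT, 1.15 and 0.690 in KO, 3.69 and 2.14 in Q20, 3.33 and 0.891 in Q50, 4.08 and 1.35 in Q92 and 4.83 and 1.18 in Q111. The first replicate was above the second in every genotype, and the KO libraries were below both WT and both Q20 libraries. Pcdhac2 had 0.841 and 0.195 CPM in WT, 0.604 and 0.133 in KO, 0.489 and 2.01 in Q20, 0.457 and 0.503 in Q50, 0.709 and 0.683 in Q92 and 1.74 and 0.243 in Q111, with the highest values in single libraries of Q20 and Q111.

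Replicates of the same NPC line differed more in these genes than in most. The median absolute difference between the 2 replicates of a genotype, on the log2(CPM + 1) scale, was 0.65 over the 222 pairs of the 37 members and 0.19 over all 13206 genes tested in NPC. By cluster it was 0.53 for alpha, 1.96 for beta and 0.78 for gamma. Over all tested NPC genes it was 0.442 in WT, 0.326 in KO and 0.111 to 0.166 in the knock-in lines. The pairwise limma fits below shared 1 spread per gene over the 6 genotypes, so counts of calls cannot be ranked between comparisons. A difference of at least 2 was seen in 26 of 222 pairs (11.7%), 17 of them gamma, 9 beta and 0 alpha, against 1.49% over all tested genes. All 9 beta pairs had an exact 0 in 1 library. In mESC the median was 0.34 over 96 pairs of the 16 members against 0.40 over all 13916 tested genes, and 3 pairs (3.12%) differed by at least 2, against 1.8%. These values describe the libraries and carry no test.

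**Figure D3:**
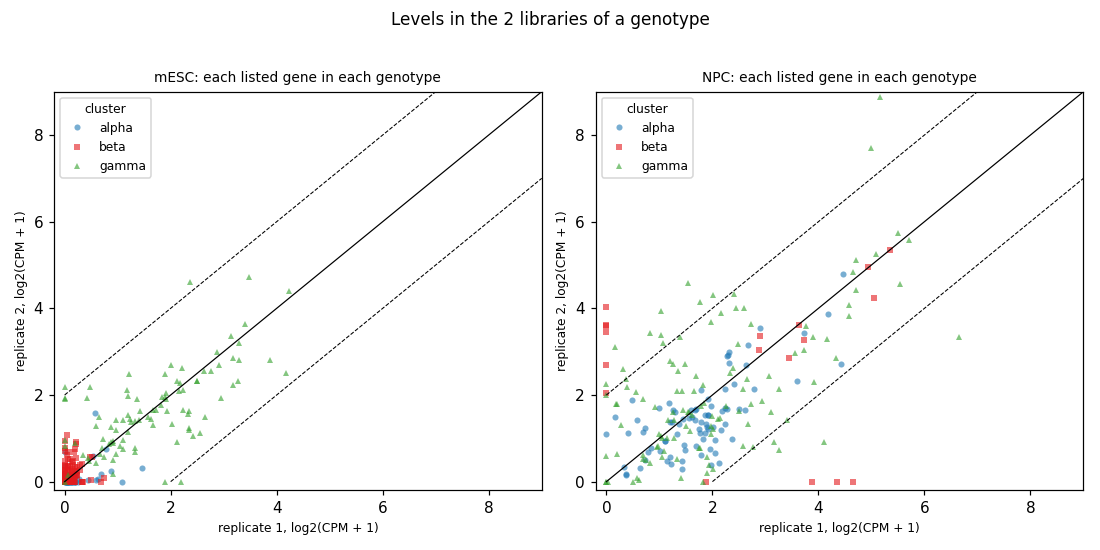
Level of each listed gene in replicate 1 (x axis) against replicate 2 (y axis) of the same genotype, as log2(CPM + 1), for mESC (left) and NPC (right), with clusters by colour and shape; the solid line marks equal levels and the dashed lines a log2 difference of 2. In NPC 26 of 222 pairs lie on or beyond the dashed lines, with beta genes on the axes at an exact 0.

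Genotypes were compared with limma on log2(CPM + 1), with p-values adjusted over all tested genes of a cell type by the Benjamini-Hochberg method and a gene called at an adjusted p under 0.05; differences are on this log2 scale, which understates changes of low genes. In mESC, 0 of 16 members were called in KO against WT (0.0144% of all tested genes were), in Q20 against WT (0.323%), in Q50 against Q20 (0.00719%), in Q92 against Q20 (0.00719%), in Q111 against Q20 (0%), in the test of any difference among the 6 genotypes (0.201%) and in the trend with CAG length (0%). At an unadjusted p under 0.05 the counts were 4, 2, 7, 3, 2, 7 and 1 of 16, where 3.97%, 12.3%, 6.37%, 5.37%, 2.69%, 9.91% and 2.57% of all tested genes passed, and edgeR on the recovered reads also called 0 at the adjusted threshold in each. Replicate numbers in mESC marked libraries that deviated together, and with the replicate number as a block Pcdhga11 was called lower in Q20 than WT (log2 difference −1.15, limma adjusted p = 0.0237, against 0.132 without the block). With the block 4.69% of all tested genes were called lower in that comparison, and 0.0647% without it. Pcdhgb7 and Pcdhga3 were called in the test of any difference with the block (limma adjusted p = 0.0399 and 0.0483, against 0.169 and 0.247 without), where 8.67% of all tested genes were called with the block. The 7 members with an unadjusted p under 0.05 in Q50 against Q20 were all gamma genes and all higher in Q50, with limma adjusted p of 0.575 or more. Gamma genes share their constant exons, so these are not 7 separate observations. The share of all tested genes that were higher at this threshold was not counted. The median log2 difference of the 16 members there was 0.63 against 0.01 over all tested genes.

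In NPC, KO was compared with WT first. Of the clustered protocadherin genes, 0 of 37 were called by limma, where 1.42% of all tested genes were and 0.545% were called lower; 1 had an unadjusted p under 0.05, as 13.3% of all tested genes had, and edgeR called 0. That member was Pcdhac2, at 3.82 and 6.41 CPM in KO against 17.1 and 13.6 in WT (log2 difference −1.44, SE 0.28, limma adjusted p = 0.0528). The groups did not overlap, a pattern that was not counted over all tested genes. Without WT replicate 2 Pcdhac2 was among 2 members called (limma adjusted p = 0.0277), and without KO replicate 2 it was the 1 member called (0.0485). The median log2 difference of the members was −0.09, against 0.03 over all tested genes.

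The line with the shortest repeat, Q20, differed from WT in 5 of 37 members (13.5%), where 14.5% of all tested genes were called. The alternate gamma genes Pcdhgb7 and Pcdhga4 rose (9.97% of all tested genes did), and Pcdhac2 and the alternate gamma genes Pcdhga8 and Pcdhga10 fell (4.57% did). Pcdhgb7 had 2.14 and 3.28 CPM in WT, 1.97 and 1.26 in KO, 12.6 and 11.1 in Q20, 2.98 and 1.85 in Q50, 5.60 and 11.4 in Q92 and 0.609 and 0.539 in Q111. The Q20 mean was 11.9 CPM and the WT mean 2.71 (log2 difference 1.81, SE 0.32, limma adjusted p = 0.0066). Pcdhga4 had 3.42 and 1.78 CPM in WT, 1.09 and 8.21 in KO, 24.02 and 27.7 in Q20, 0.889 and 2.28 in Q50, 2.72 and 0.485 in Q92 and 0.988 and 1.13 in Q111. Both Q20 libraries were far above the other 10, of which KO replicate 2 was the highest (Q20 against WT 2.94, SE 0.68, limma adjusted p = 0.0233).

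Pcdhac2 fell from a mean of 15.3 CPM in WT to 5.30 in Q20 (−1.37, SE 0.28, limma adjusted p = 0.0129). Pcdhga8 had 14.1 and 3.94 CPM in WT, 6.68 and 2.61 in KO, 1.06 and 0.997 in Q20, 1.41 and 1.02 in Q50, 2.05 and 1.89 in Q92 and 1.03 and 1.06 in Q111, so that WT and KO were above all knock-in libraries (Q20 against WT −2.09, SE 0.50, limma adjusted p = 0.0255). Pcdhga10 had 12.3 and 7.16 CPM in WT, 8.59 and 0.653 in KO, 0.410 and 0 in Q20, 0.619 and 2.77 in Q50, 1.40 and 5.55 in Q92 and 0.0271 and 0 in Q111. It was at or near 0 in Q20 and Q111 and the KO libraries lay far apart (Q20 against WT −3.13, SE 0.81, limma adjusted p = 0.0367). Without Q20 replicate 1 no member was called in this comparison (limma adjusted p 0.0523 for Pcdhgb7 to 0.12 for Pcdhga10), and without Q20 replicate 2 only Pcdhgb7 was; each WT library left out gave 3 calls. edgeR called 3 of the 37, not Pcdhga4 (0.0849) or Pcdhga10 (0.0955), and a fit on the 4 libraries alone called 2. Shares of all tested genes called in these fits were not counted.

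The longer alleles were each compared with Q20, and these comparisons share the Q20 libraries. In Q50 against Q20, 3 of 37 members were called (8.11%), where 18.8% of all tested genes were (8.05% higher, 10.7% lower). Pcdhac2 rose, from 5.17 and 5.44 CPM in Q20 to 21.0 and 26.6 in Q50 (log2 difference 1.97, SE 0.28, limma adjusted p = 0.00175). Pcdhgb7 fell, to 2.98 and 1.85 CPM (−1.93, SE 0.32, limma adjusted p = 0.00411), and Pcdhga4 fell, to 0.890 and 2.28 CPM (−3.43, SE 0.68, limma adjusted p = 0.00982). None of the 3 overlapped between the groups, and such non-overlap was not counted over all tested genes. Pcdhac2 and Pcdhgb7 passed under every alternative run, while Pcdhga4 did not without Q20 replicate 1 (limma adjusted p = 0.052), Q20 replicate 2 (0.0599) or Q50 replicate 1 (0.0726).

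In Q92 against Q20, 3 of 37 members were called, where 25.8% of all tested genes were (9.88% higher, 15.9% lower). Pcdhga4 fell to 2.72 and 0.485 CPM (log2 difference −3.51, SE 0.68, limma adjusted p = 0.00719). Pcdhgb4, an alternate gamma gene, had 4.94 and 0.773 CPM in WT, 3.02 and 1.32 in KO, 0.522 and 0.0322 in Q20, 1.82 and 1.42 in Q50, 3.47 and 13.9 in Q92 and 1.68 and 3.23 in Q111. It rose in Q92 against Q20 (2.70, SE 0.68, limma adjusted p = 0.0215), with the higher value in Q92 replicate 2, which was the highest of the 12. Pcdhac2 rose to 12.3 and 9.87 CPM (0.93, SE 0.28, limma adjusted p = 0.0411). Without Q92 replicate 2, 0 members were called (limma adjusted p = 0.0541 for Pcdhga4, 0.127 for Pcdhgb4 and 0.0897 for Pcdhac2), and without Q20 replicate 1 only Pcdhga4 was. Pcdhac2 lost its call without any 1 of the 4 libraries (limma adjusted p 0.0897 to 0.201) and under median-of-ratios scaling (0.051), and Pcdhgb4 also without Q20 replicate 1 (0.07) or replicate 2 (0.112). The fit on the 4 libraries of both groups alone called 9, and the share of all tested genes called in that fit was not counted.

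In Q111 against Q20, 7 of 37 members were called (18.9%), where 28.3% of all tested genes were. Pcdhga7 rose (12.2% of all tested genes did), and Pcdhgb7, Pcdhga4, Pcdhga11, Pcdha1, Pcdha3 and Pcdha7 fell (16.1% did). Pcdhgb7 fell from 12.6 and 11.1 CPM to 0.609 and 0.539 (log2 difference −3.03, SE 0.32, limma adjusted p = 0.000347), and Pcdhga4 from 24.0 and 27.7 to 0.988 and 1.13 (−3.70, SE 0.68, limma adjusted p = 0.00587). Both passed under every alternative run. Pcdhga11 fell from 32.97 and 37.3 to 2.60 and 2.52 CPM (−3.34, SE 0.92, limma adjusted p = 0.0295). Pcdhga7 rose from 2.55 and 3.68 to 44.5 and 52.2 CPM (3.59, SE 1.13, limma adjusted p = 0.0453), a call that was lost with a pseudocount of 0.25 (0.052) and with edgeR (0.0636). Its replicates agreed in both of these lines, while those of WT, KO and Q50 lay far apart.

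The 3 alpha genes that fell in Q111 were low-level alternate genes. Pcdha1 had 3.85 and 2.19 CPM in WT, 5.15 and 2.16 in KO, 3.93 and 6.64 in Q20, 3.94 and 7.01 in Q50, 2.06 and 1.81 in Q92 and 0.325 and 1.19 in Q111, with Q111 below all other libraries (Q111 against Q20 −1.85, SE 0.42, limma adjusted p = 0.0148). Pcdha3 fell from 4.31 and 3.76 to 1.34 and 0.326 CPM (−1.51, SE 0.45, limma adjusted p = 0.0383). Pcdha7 fell from 2.20 and 2.16 to 0.663 and 0.411 CPM (−1.05, SE 0.33, limma adjusted p = 0.0439). The median log2 difference of the 14 alpha genes was −0.73, against 0.03 over all tested genes. Leaving out any of the 4 libraries left 2 or 3 of the 7 calls; Pcdha3, Pcdha7, Pcdhga11 and Pcdhga7 each lost theirs without any 1 of them (limma adjusted p 0.0561 to 0.204), and Pcdha1 without Q20 replicate 2 (0.0928) or Q111 replicate 1 (0.0994).

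**Figure D4:**
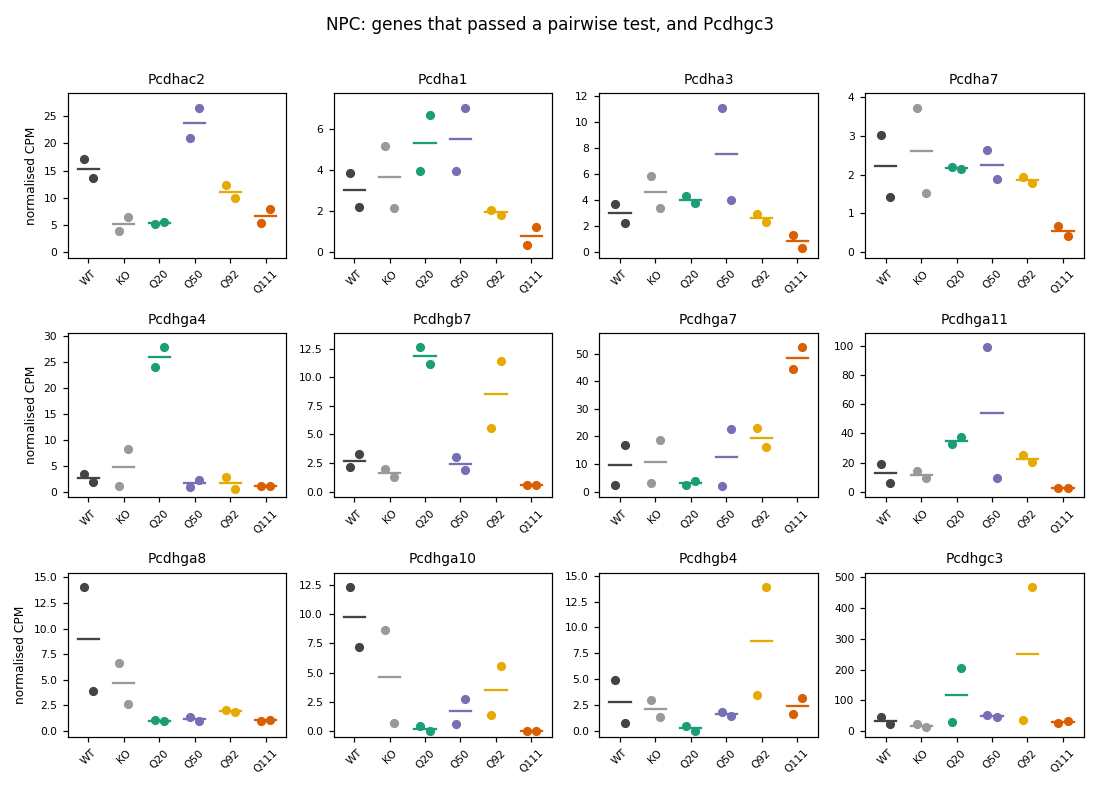
Normalised CPM (y axes, linear, own scale per gene) of the 11 genes called in a pairwise NPC comparison and of Pcdhgc3, by genotype (x axes); points are the 2 libraries and bars their mean. Pcdhga4 is high in both Q20 libraries alone (24.0 and 27.7 CPM), Pcdhga7 highest in both Q111 libraries (44.5 and 52.2), and Pcdhgc3 high in 1 library each of Q20 and Q92.

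Over all 6 NPC genotypes, 7 of 37 members differed (18.9%), where 38.0% of all tested genes did. These were the alpha genes Pcdhac2 (limma adjusted p = 0.00308), Pcdha4 (0.0252), Pcdha1 (0.0429) and Pcdha3 (0.0494) and the gamma genes Pcdhgb7 (0.00118), Pcdhga4 (0.0192) and Pcdhga8 (0.0372). Pcdhac2 and Pcdhgb7 passed with every library left out in turn and with edgeR, which called 4 of 37. The count was 3 without Q20 replicate 1, Q92 replicate 2 or Q111 replicate 1 and 4 without Q20 replicate 2, Q92 replicate 1 or Q111 replicate 2. For the most abundant gene, Pcdhgc3, the limma adjusted p was 0.352. No beta gene was called in any comparison, in tests whose spread includes the zeros described above.

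The trend with CAG length was taken over the 8 knock-in libraries and expressed as the log2 change from 20 to 111 repeats. In NPC 3 of 37 members had a slope (8.11%), where 22.0% of all tested genes did (12.0% upward, 10.1% downward). Pcdha1 fell by 1.89 (SE 0.41, limma adjusted p = 0.0147) and Pcdhga4 fell by 3.22 (SE 0.88, limma adjusted p = 0.0335), and Pcdhga7 rose by 3.42 (SE 0.73, limma adjusted p = 0.0147). The mean CPM of Pcdhga7 was 3.11 in Q20, 12.4 in Q50, 19.5 in Q92 and 48.4 in Q111, the order of the lengths. The single libraries did not keep this order. Q50 replicate 1 (1.90 CPM) was below both Q20 libraries (2.55 and 3.68), and Q50 replicate 2 (22.8) was above Q92 replicate 2 (15.99). Replicate 2 of WT and of KO had 16.8 and 18.7 CPM. Pcdhga4 had no such order, with 25.9 CPM in Q20 and 1.06 to 1.60 in the others, and without the Q20 line its slope was −0.37 (limma adjusted p = 0.762). With 1 mean value per line none of the 3 passed (limma adjusted p 0.295 to 0.343), 4 members were called without the Q20 line, 5 without the Q92 line and 1 without the Q111 line; length differed between 4 lines only. Without Q20 replicate 1, Q20 replicate 2 or Q111 replicate 2 only 1 member was called: Pcdhga7 lost its call without Q20 replicate 1 (limma adjusted p = 0.0614) or Q111 replicate 2 (0.0514), Pcdha1 without Q20 replicate 2 (0.0573), and Pcdhga4 without any of the 3 (0.136, 0.133 and 0.0625).

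For the 15 members tested in both cell types, the difference between genotypes in NPC was set against that in mESC in a joint limma fit. This fit held no replicate block, was not repeated with the mESC pairing, and used a shared spread per gene over both cell types. In Q20 against WT, 3 of 15 members had different effects in the 2 cell types, where 4.27% of 12321 genes tested in both did; in Q50 against Q20 3 (4.59%), in Q92 against Q20 1 (5.96%), in Q111 against Q20 3 (4.97%), in the CAG trend 1 (4.86%) and in KO against WT 0 (0.0406%). Pcdhga4 was among them in 4 of these comparisons and Pcdhgb7 in 3, and their mESC values, chosen for print after they were seen, follow. Pcdhga4 had 1.65 and 1.66 CPM in WT, 0.343 and 2.80 in KO, 0.964 and 0.549 in Q20, 2.50 and 2.39 in Q50, 0.962 and 1.69 in Q92 and 0.777 and 0.833 in Q111 in mESC. Pcdhgb7 had 2.77 and 2.73 CPM in WT, 2.71 and 2.89 in KO, 1.16 and 1.69 in Q20, 3.53 and 3.81 in Q50, 1.30 and 1.89 in Q92 and 0.884 and 0.128 in Q111 in mESC. Q20 was not the highest genotype for either gene there, while in NPC it had the highest mean for both. For Pcdhga7, which differed in the trend, the mESC values were 3.59 and 0 CPM in WT, 2.73 and 0 in KO, 2.58 and 2.89 in Q20, 2.71 and 4.61 in Q50, 0 and 2.81 in Q92 and 0 and 2.74 in Q111, with zeros in WT, KO, Q92 and Q111.

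**Figure D5:**
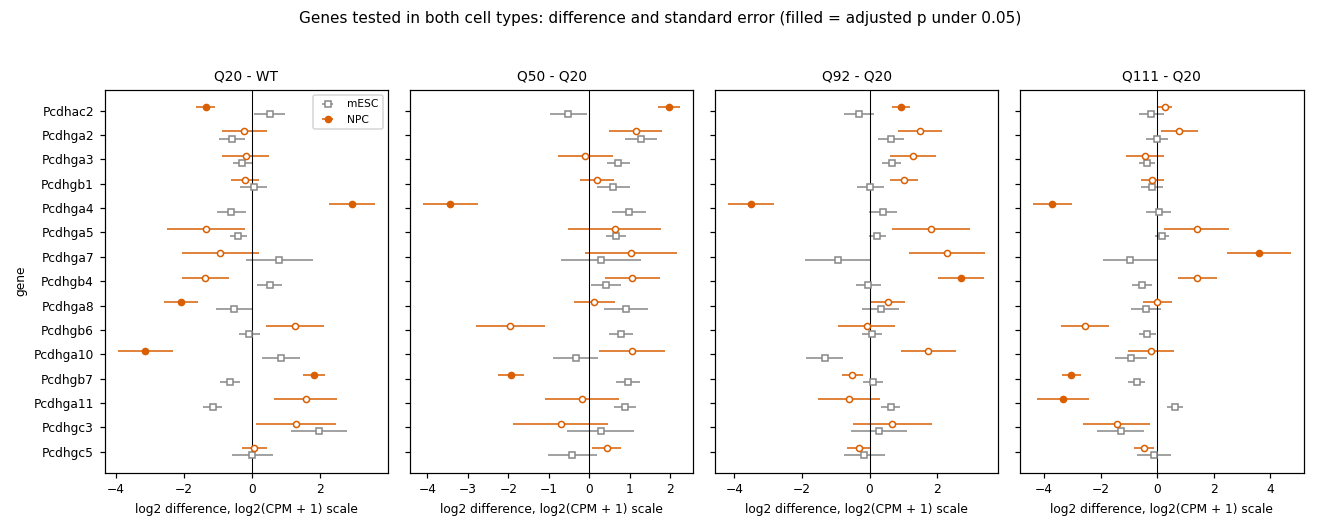
Log2 difference between genotypes (x axes, log2(CPM + 1) scale, bars are the standard error of the limma fit) for the 15 genes tested in both cell types (y axis), mESC as grey squares and NPC as orange circles, filled where the adjusted p was under 0.05. No mESC symbol is filled, and Pcdhga4 is at 2.94 in Q20 against WT and at −3.43, −3.51 and −3.70 in the comparisons of longer alleles with Q20 in NPC.

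Regulators of these promoters were measured in the same libraries. The list held 22 genes, all tested: CTCF and the cohesin genes, which loop enhancers to the promoters, DNA methyltransferases, and silencing factors such as Smchd1. None was called in mESC in any comparison or in NPC in KO against WT. In NPC, 1 of 22 was called in Q20 against WT (14.5% of all tested genes were), the de novo methyltransferase Dnmt3b, with 210 and 241 CPM in Q20 and 3.62 to 7.65 in the other 10 libraries (log2 difference 5.05, SE 0.24, limma adjusted p = 5.63e-06). The Q20 NPC libraries stood apart in Dnmt3b, in pluripotency markers and in Pcdhga4, among the many genes called in this comparison. In mESC Dnmt3b was at 161 to 527 CPM and Pcdhga4 at 0.343 to 2.80 CPM. The part of Dnmt3b and of the pluripotency markers in the Pcdhga4 level was not tested. In Q92 against Q20, 9 of 22 rose and 1 fell, where 9.88% and 15.9% of all tested genes did, among them the cohesin genes Stag2 (0.79, SE 0.13, limma adjusted p = 0.00273) and Smc1a (0.997, SE 0.16, limma adjusted p = 0.00307). In Q111 against Q20, 6 rose and 1 fell, where 12.2% and 16.1% of all tested genes did, with Smchd1, a repressor of clustered protocadherin promoters, at 402 CPM in Q111 and 218 in Q20 (0.89, SE 0.20, limma adjusted p = 0.0143). Smchd1 was at 230 and 330 CPM in the WT libraries and at 289 and 405.5 in KO. In the CAG trend 9 rose and 1 fell, where 12.0% and 10.1% of all tested genes did, led by the maintenance methyltransferase Dnmt1 (1.48, SE 0.14, limma adjusted p = 0.000838). Dnmt1 had 287 and 293 CPM in Q20 and 760 and 743 in Q111. Its WT libraries had 209.5 and 719 CPM and its KO libraries 340 and 693, so replicates of these lines lay far apart. The median log2 difference of the 22 genes was 0.51 in Q92 and 0.40 in Q111 against Q20, beside 0.06 and 0.03 over all tested genes.

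Genes whose products bind or cut the cytoplasmic tails, such as focal adhesion kinases, the WAVE complex and secretases, numbered 18, of which 17 were tested in NPC. In Q20 against WT 2 rose and 3 fell, in Q50 against Q20 3 rose and 2 fell, in Q92 2 rose and 4 fell, and in Q111 2 rose and 2 fell; 0 were called in KO against WT or in mESC. The 5, 5, 6 and 4 of 17 called stand beside 14.5%, 18.8%, 25.8% and 28.3% of all tested genes. Ptk2b, a kinase bound by the alpha and gamma constant tail, had a mean of 4.13 CPM in Q20 and 0.092 in WT (log2 difference 2.22, SE 0.15, limma adjusted p = 2.69e-05). Cyfip2 of the WAVE complex had 159 in Q20 and 38.7 in WT (2.03, SE 0.22, limma adjusted p = 0.000444), and Abi2 of the same complex had 81.3 and 98.8 in the Q20 libraries and 187 and 175 in WT (−1.004, SE 0.12, limma adjusted p = 0.000862). Adam10, the protease that sheds the ectodomain, was 102 in Q20 and 210 CPM in Q111 (1.02, SE 0.16, limma adjusted p = 0.00266).

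The non-clustered protocadherins, single genes outside the clusters, were set beside them; Pcdh1 and Pcdh12 lie within 500 kb of the gamma cluster and are also counted among its neighbours below. Of 12, 11 were tested in NPC, where they summed to 320 to 1001 CPM, and 8 in mESC, where they summed to 7.70 to 43.1. None was called in mESC or in KO against WT. In Q20 against WT Pcdh8 and Pcdh1 rose and Pcdh11x fell; in Q50 against Q20 1 rose and 3 fell; in Q92 4 and in Q111 3 fell and 0 rose. The 3, 4, 4 and 3 of 11 called stand beside the same shares of all tested genes. Pcdh1 had a mean of 34.0 CPM in Q20, 8.42 in WT and 8.49 in Q111 (Q111 against Q20 −1.96, SE 0.35, limma adjusted p = 0.00527). Pcdh15, known from the tip links of inner ear hair cells, had 17.9 CPM in Q20 and 0.459 in Q92 (−3.69, SE 0.49, limma adjusted p = 0.00104).

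Genes around the clusters were counted in the same way. Of 34 protein-coding neighbours within 500 kb of, or between, the clusters, 28 were listed in each table, matched by gene identifier, and 24 tested in NPC. In Q20 against WT 3 rose and 0 fell, in Q50 against Q20 3 rose and 4 fell, in Q92 3 rose and 4 fell, in Q111 0 rose and 4 fell, and 0 were called in KO against WT or in mESC. Over all tested genes 14.5%, 18.8%, 25.8% and 28.3% were called in these 4 comparisons, against 3, 7, 7 and 4 of the 24 neighbours. Arap3, a GTPase-activating protein downstream of the gamma cluster, was 7.11 CPM in Q20 and 0.366 in WT (log2 difference 2.58, SE 0.18, limma adjusted p = 3.44e-05) and 0.211 in Q111 (Q111 against Q20 −2.75, SE 0.18, limma adjusted p = 2.59e-05). The median log2 difference of the 24 neighbours was between −0.06 and 0.14 in the 5 pairwise comparisons.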

How the data were processed

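RNA sequencing values of 24 libraries were used. Per the submitters' processing notes, CASAVA 1.8, STAR and GRCm38.p6 were used; the counting tool, its use of strand, the annotation and the gene filter are not given in the sources used here. The authors' deposited values are a normalised signal, headed as CPM per the file headers, in which whole read counts per gene were multiplied by 1 scaling factor per library, with a table each for mESC and NPC. In all libraries 100% of values were whole reads within 0.01 read, and the factors matched TMM scaling within 5e-08. Positions came from GENCODE M21 (GRCm38), which matched 99.94% of mESC and 99.95% of NPC identifiers.

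Genes with 1 CPM in 2 libraries were tested (13916 in mESC, 13206 in NPC) with limma 3.58.1 in R 4.3.3 on log2(CPM + 1), a pseudocount of 1, with a variance trend and 6 genotype means per cell type; tests were two-sided. edgeR 4.0.16 (quasi-likelihood) ran on the recovered reads. The members and gene lists were chosen with earlier results of these data known. Members named with all values were the C-type genes, the 3 with the highest mean per cluster and cell type, and up to 3 called genes per comparison and direction; other members are named as counted. The joint fit over both cell types was added after seeing the data, as were trends without each line.

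Replicate numbers were checked by correlating replicate differences between genotypes: all 15 pairs gave 0.25 to 0.547 in mESC, which was taken as pairing from the data, since the labels give a number only. In NPC the numbers were not taken to pair libraries. Totals cover counted reads; 1 read was worth 0.00882 to 0.0193 CPM in NPC. The scripts were tested on simulated data. Alternatives were another pseudocount, no filter, median-of-ratios scaling, edgeR, a fit on the compared groups, the replicate block, 89 repeats for Q92, 1 mean per line and leaving out each library.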

Additional observations from a re-analysis of the deposited data

Results flagged for a closer look

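For the members tested in both cell types, 11 differences between NPC and mESC in the same contrast passed the joint limma fit, which held no replicate block. For Q20 against WT the NPC minus mESC log2 difference was −3.99 for Pcdhga10 (adjusted p = 0.042), 3.54 for Pcdhga4 (0.025) and 2.45 for Pcdhgb7 (0.00367). For Q50 against Q20 it was 2.48 for Pcdhac2 (limma adjusted p = 0.0156), −4.41 for Pcdhga4 (0.0058) and −2.89 for Pcdhgb7 (0.00121). For Q92 against Q20 it was −3.91 for Pcdhga4 (limma adjusted p = 0.012). For Q111 against Q20 it was −3.97 for Pcdhga11 (limma adjusted p = 0.0318), −3.75 for Pcdhga4 (0.0175) and −2.31 for Pcdhgb7 (0.00607). For the trend with CAG length it was 4.64 for Pcdhga7 (limma adjusted p = 0.0207). The comparisons with Q20 share its libraries. In NPC the Q20 libraries also carried pluripotency markers at a sum of 104.5 and 102 CPM and Dnmt3b at 210 and 241 CPM; their part in these differences was not tested.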

How the results depend on the processing

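Of 435 values of 35 named results under the alternatives, 326 kept their direction and their side of the threshold, 106 lost a call, 3 gained 1 and 0 reversed. Counts of members called moved as follows. Apart from the mESC block fits, the share of all tested genes called under an alternative was not counted. A moved count is therefore no result about the members. With the replicate block, mESC Q20 against WT gave 1 and any genotype 2 (0 without the block). In NPC, where the numbers were not taken to pair libraries (correlations of replicate differences −0.049 to 0.17, and 0.467 for WT with KO), the block moved no count by more than 1.5 times; with it Pcdha8 in Q111 against Q20 (limma adjusted p = 0.0378) and Pcdha7 over any genotype (0.0378) gained a call, and Pcdhga10 in Q20 against WT (0.05), Pcdha1 over any genotype (0.0601) and Pcdhga4 in the trend (0.0565) lost theirs. With edgeR, NPC Q20 against WT gave 3 (5 reported) and any genotype 4 (7 reported). With the 2 compared groups alone, Q20 against WT gave 2, Q50 against Q20 5 (3 reported), Q92 against Q20 9 (3 reported) and Q111 against Q20 11 (7 reported). The NPC trend gave 0 with 1 mean per line, 5 without the Q92 line and 1 without the Q111 line (3 reported). Leaving out each library gave 0 to 2 in KO against WT, 0 to 3 in Q20 against WT, 2 to 4 in Q50 against Q20, 0 to 4 in Q92 against Q20, 2 to 3 in Q111 against Q20, 3 to 10 over any genotype and 1 to 4 in the trend in NPC, and 0 to 0 in each mESC comparison. A lone library left in a group was assumed to vary like the other groups. In mESC, 28 of 44 members were below the filter, and differences in them were not tested.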
